A study of Homo sapiens with 40 samples.

Results

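SLC7A5 encodes LAT1, the light chain of the main leucine carrier of the cell surface, and it was examined with 6 other amino acid transporters in HepaRG cultures exposed to PCB 126, glyphosate or Roundup. The 7 genes were SLC7A5, its partner SLC3A2, the related carriers SLC7A8 and SLC7A6, the glutamine carriers SLC1A5 and SLC38A2, and SLC43A1. They make up 7 of the 56568 gene names in the tables and 86 of the 234960 transcripts, and 4 transcripts without a gene name on the minus strand at SLC7A5 were counted with them. SLC7A5 was selected on its measured FPKM in the PCB 126 libraries, and the other 6 genes were taken with it as carriers of related function, with earlier results of these libraries known. The values of SLC7A5 in the PCB 126 groups are therefore a description, with no test.

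LAT1 imports leucine and other large neutral amino acids without sodium, in exchange for intracellular amino acids such as glutamine, and it reaches the membrane only when bound to the heavy chain that SLC3A2 encodes. Glutamine enters through sodium-coupled carriers such as those of SLC1A5 and SLC38A2, while the SLC43A1 carrier moves neutral amino acids down their gradient and needs no heavy chain. In adult liver LAT1 is known to be scarce, and the gene is known to be induced in growing and stressed cells.

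HepaRG is a human hepatic cell line whose differentiated cultures mix hepatocyte-like and biliary-like cells, so that RNA of both kinds stands in each library. The cultures were exposed for 6 days, from day 8 to day 14, in a medium with serum and DMSO that was also given to the solvent control. The 8 groups of 5 libraries were the control, 3 concentrations of PCB 126 (100 pM, 10 nM and 1 µM), 3 of the herbicide glyphosate (10 µg/L, then 1 mg/L, then 0.1 g/L), and its formulated product Roundup Grand Travaux + at 10 µg/L. PCB 126 is a polychlorinated biphenyl that acts like dioxin through the aryl hydrocarbon receptor. Each group is 1 cell line, and no label ties a library to a separate culture, so that p-values measure the spread between libraries only. The PCB 126 and glyphosate tables share their 5 control libraries.

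Levels are FPKM, fragments counted relative to transcript length and to all mapped fragments of the library, summed over the transcripts that share a gene name. The tables hold no read counts, and the depth of a library is unknown from them. Summed FPKM ranged from 255292 to 513059 between libraries, and 9 of the 40 libraries (5 of the PCB 126 table) belong to those with more than 30% of read pairs aligned to several places. They include control replicate 5, replicates 3 and 5 at 10 nM, and replicates 1 and 5 at 1 µM. Some entries of the alignment summary carried no library name, so the count of 9 may be incomplete. CYP1A1, the classical target of the aryl hydrocarbon receptor, lay between 0 and 7.69 FPKM in the controls and between 85.2 and 389 FPKM at 1 µM, and it did not exceed 6.48 FPKM in any herbicide library. In bulk RNA, fewer cells of a type and less RNA per cell cannot be told apart.

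Under control conditions SLC38A2 was the most abundant of the 7 genes at 99.1 FPKM ± 26.1 (SD, n = 5). SLC3A2 followed with 40.1 ± 10.7, SLC1A5 with 23.5 ± 6.90, SLC43A1 with 12.1 ± 2.08 and SLC7A6 with 3.93 ± 1.31. The transcripts named SLC7A5 summed to 0.779 ± 0.368 FPKM, and SLC7A8 was lowest with 0.280 ± 0.152. In this order the control libraries of SLC3A2 and SLC1A5, of SLC1A5 and SLC43A1, and of SLC7A5 and SLC7A8 overlapped, and those of the other neighbours did not.

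SLC7A5 is on the minus strand of chromosome 16. The tables list 3 transcripts with its name. ENST00000261622, with 10 exons, is the annotated full-length coding transcript, ENST00000565644 also has 10 exons, and ENST00000563489 is a short transcript that the annotation classes as a retained intron. In GENCODE release 44 on GRCh38, exon 1 of ENST00000261622 spans chr16:87868885-87869507 and holds the start codon at chr16:87869420-87869422, and intron 1 spans the next 17035 bases down to 87851850. The 4 transcripts without a gene name were assembled from the reads by the authors. MSTRG.16033.1 and MSTRG.16033.2 span chr16:87829994-87860830 with 10 exons each, MSTRG.16033.5 spans chr16:87830061-87853838 with 10 exons, and MSTRG.16033.7 spans chr16:87851294-87864607 with 2 exons.

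The assembled start at 87860830 lay inside intron 1, 8677 bases downstream of the annotated start. As listed, MSTRG.16033.1 and MSTRG.16033.2 therefore contain neither exon 1 nor its start codon. ENST00000565644, which the annotation classes as protein coding, also begins in this intron, 2809 bases upstream of the assembled start at 87860830. Its FPKM was at most 0.0143 in every library. The tables give no exon positions and no reads per exon, so the assignment of reads that overlapping transcripts share could not be examined.

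ENST00000261622 is compared below with MSTRG.16033.1 and MSTRG.16033.2, so the 250 bases before the annotated start and before their assembled start are shown. Both are GRCh38 sequences of the minus strand, printed 5′ to 3′, the first from the RefSeq promoter table and the second from the genome. Capitals mark GCGTG, the core letters of the aryl hydrocarbon receptor element, on either strand (CACGC where it lies on the other strand).
Annotated start, chr16:87869508-87869757: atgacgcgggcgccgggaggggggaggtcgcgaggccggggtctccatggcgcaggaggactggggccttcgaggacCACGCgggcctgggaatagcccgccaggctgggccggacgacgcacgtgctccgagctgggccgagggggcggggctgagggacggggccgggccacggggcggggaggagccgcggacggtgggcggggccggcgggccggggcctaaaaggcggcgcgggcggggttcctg
Assembled start, chr16:87860831-87861080: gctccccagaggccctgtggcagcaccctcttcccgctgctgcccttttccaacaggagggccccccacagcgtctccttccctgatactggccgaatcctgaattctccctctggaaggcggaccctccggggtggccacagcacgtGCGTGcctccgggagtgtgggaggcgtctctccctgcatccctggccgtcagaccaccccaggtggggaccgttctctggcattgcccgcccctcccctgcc
Each window held 1 match to GCGTG on the 2 strands together. The letters occur in 32.2% of the 34796 promoter windows of the same length. The match began 102 bases before the assembled start and 173 bases before the annotated start. Guanine and cytosine made up 79.6% of the bases before the annotated start and 68% before the assembled start. TGATGNAA, letters shared by amino acid response elements, was in neither window and occurs in 3.16% of promoter windows on either strand. A match is a description of letters and no evidence of binding.

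Summed over all 7 transcripts of the locus, SLC7A5 was higher in the PCB 126 groups, in the order of the concentrations. The control libraries held 1.43, 1.15, 0.858, 0.630 and 0.259 FPKM, a mean of 0.864 ± 0.453 (SD, n = 5). At 100 pM the libraries held 1.96, 1.66, 1.43, 1.07 and 3.11 FPKM, 1.84 ± 0.780. These values overlapped the control range through 2 libraries, and the 100 pM mean was 2.13 times the control mean.

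At 10 nM the locus held 12.1, 8.91, 1.73, 3.96 and 9.62 FPKM, 7.26 ± 4.28, or 8.40 times the control mean. Replicate 3 was lowest, and the same library had the lowest CYP1A1 of its group with 92.1 FPKM. At 1 µM the locus held 13.5, 8.34, 22.5, 16.5 and 12.3 FPKM, 14.6 ± 5.29, or 16.9 times the control mean. All libraries at 10 nM and at 1 µM were above all controls, a pattern that 0.267% and 0.707% of the 9755 genes tested in the PCB 126 table showed by their gene names. The 1 µM and 10 nM groups overlapped. On the log2(FPKM + 1) scale the differences from control were 0.61, 1.97 and 3.04 at the 3 concentrations. With the 9 libraries of high multiple alignment left out they were 0.47, 2.11 and 2.97, and with each library scaled by its 75th percentile 0.60, 2.15 and 3.25. Within each of the 5 runs of library numbers, every PCB 126 library exceeded the control library.

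**Figure D1:**
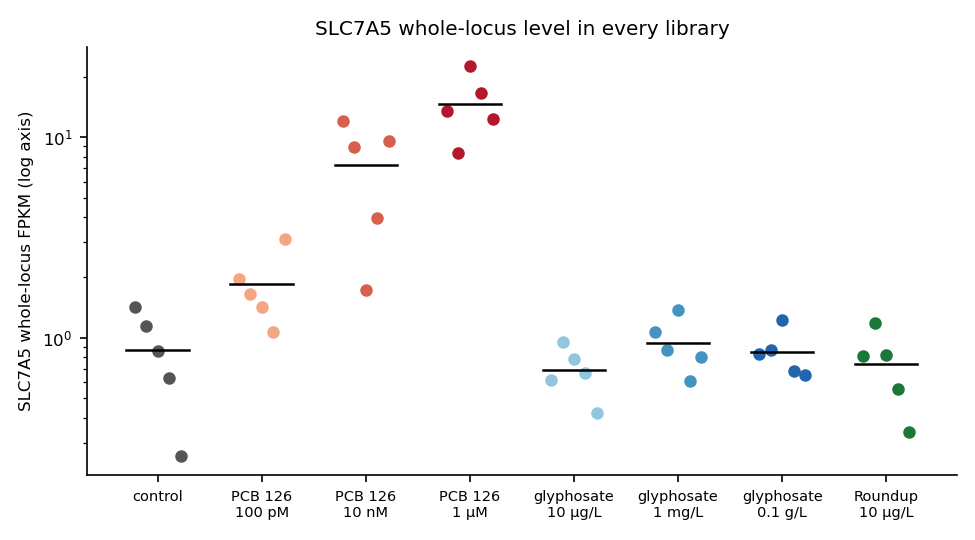
SLC7A5 whole-locus FPKM (log axis) in each of 40 libraries, by group; points are libraries and bars are means of 5. The 1 µM libraries lie between 8.34 and 22.5 FPKM, the controls between 0.259 and 1.43 FPKM, and no herbicide library exceeds 1.38 FPKM.

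The gene name alone did not carry this pattern. The transcripts named SLC7A5 summed to 0.779 FPKM in the controls, 0.466 at 100 pM, 0.780 at 10 nM and 1.02 at 1 µM, and all 4 groups overlapped. The variance of this sum was under the limit of 1 that a gene had to pass for testing. The transcripts without a gene name made up a median of 5.26% of the locus sum in the controls (0 to 19.2%). They made up 84.9% at 100 pM, 92.7% at 10 nM and 91.5% at 1 µM.

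By their coordinates, all 4 transcripts without a gene name begin in intron 1. MSTRG.16033.1 and MSTRG.16033.2, which share a start there, held most of that signal in the PCB 126 groups. Together they held 0.0215, 0.0259, 0.0504, 0.0134 and 0 FPKM in the controls. MSTRG.16033.2 was listed at 0 in every control library, so no fold is given for it. At 100 pM the pair held 1.18, 1.40, 0.0460, 0.945 and 2.68 FPKM, so that 4 libraries lay above the controls and replicate 3 within their range.

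At 10 nM the pair held 9.22, 8.2, 0.228, 3.58 and 8.74 FPKM, all above the controls. At 1 µM it held 7.97, 6.52, 20.8, 12.7 and 10.5 FPKM, between 58.9% (replicate 1) and 92.5% (replicate 3) of the locus sum of the same library. In replicate 1 the 4 transcripts without a gene name together made up 91.5%. The means at 1 µM were 6.84 ± 2.62 FPKM for MSTRG.16033.1 and 4.86 ± 3.21 for MSTRG.16033.2 (SD, n = 5). MSTRG.16033.5 reached 1.02 ± 1.43 FPKM at 1 µM, against 0.0188 ± 0.0131 in the controls, with 3.39 FPKM in replicate 1 and 0.0672 in replicate 5. The other 4 transcripts stayed under a mean of 1 FPKM in all groups. MSTRG.16033.7 went in mean from 0.0447 FPKM in the controls to 0.898 at 1 µM. ENST00000563489 went from 0.123 to 0.984 FPKM, with overlapping libraries, and held 0.493 FPKM at 1 mg/L glyphosate. At 1 µM it made up most of the 1.02 FPKM of the transcripts named SLC7A5.

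ENST00000261622, which is given here after its values were seen, went the other way. It held 0.958, 1.09, 0.781, 0.178 and 0.259 FPKM in the controls. At 1 µM it held 0, 0.0656, 0.0569, 0.0136 and 0.0507 FPKM, all below the controls. The share of all transcripts with this pattern was not counted. Such low values also occurred without PCB 126, at 0 FPKM in replicate 1 of 1 mg/L glyphosate and 0.0114 and 0.00343 FPKM in replicates 2 and 3 of 0.1 g/L. The other glyphosate libraries held 0.0732 to 0.848 FPKM. At 100 pM and 10 nM, 4 of 5 libraries held at most 0.0518 FPKM, and replicate 3 held 1.07 and 1.42 FPKM. In those 2 libraries ENST00000261622 made up 75.1% and 81.8% of the locus, against at most 1.77% in the other 13 PCB 126 libraries. CYP1A1 was 3.21 FPKM in the 100 pM library and 92.1 FPKM in the 10 nM library. It was lower still, 1.09 FPKM, in 100 pM replicate 4. There ENST00000261622 made up 1.77% of the locus, and MSTRG.16033.1 with MSTRG.16033.2 made up 88.4%. The part of read assignment between overlapping transcripts in this pattern was not tested.

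**Figure D2:**
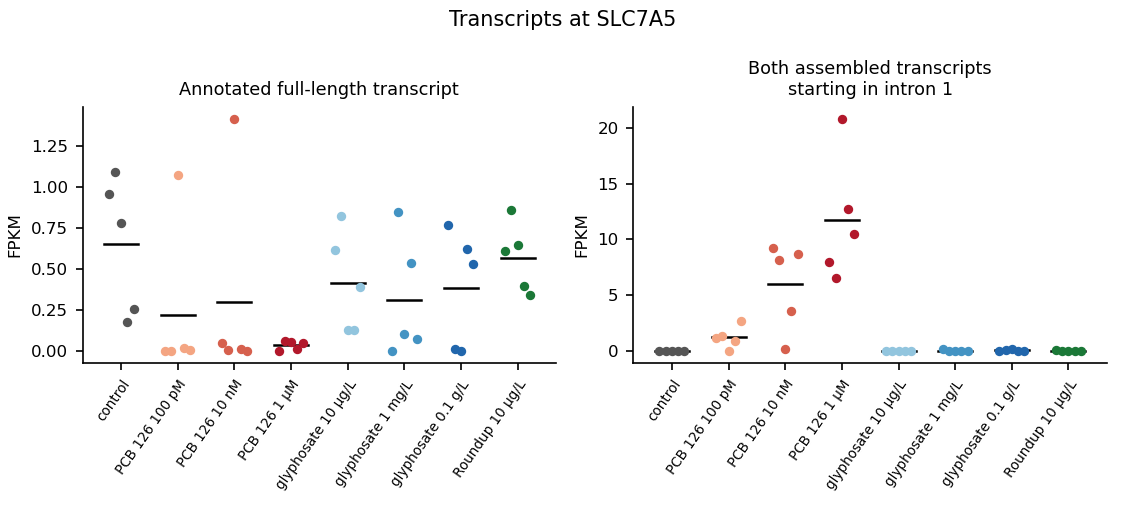
FPKM of ENST00000261622 (left) and the sum of MSTRG.16033.1 and MSTRG.16033.2 (right) in each library, by group; points are libraries and bars are means of 5. The right-hand sum is at most 0.179 FPKM in the control and herbicide libraries and 6.52 to 20.8 FPKM at 1 µM, where ENST00000261622 is at most 0.0656 FPKM.

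In the herbicide groups the locus stayed near the control level. Its mean was 0.687 ± 0.196 FPKM at 10 µg/L glyphosate, 0.946 ± 0.292 at 1 mg/L, 0.849 ± 0.229 at 0.1 g/L and 0.741 ± 0.316 under Roundup (SD, n = 5 each). The 4 groups overlapped the control range and each other. Two-sided exact permutation tests of log2(FPKM + 1), 5 libraries against 5, gave p = 0.548, 0.714, 0.873 and 0.698 against control and 0.802 for Roundup against glyphosate at 10 µg/L, and all 5 values adjusted to 0.873 (Benjamini-Hochberg). The smallest p that this design allows is 0.00794. The share of ENST00000261622 ranged from 71.3 to 100% of the locus under Roundup and from 0 to 99.5% in the glyphosate libraries. In the 7 glyphosate libraries where it was under 20%, the short ENST00000563489 made up most of the locus.

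Of the other 6 genes, 5 passed the variance limit and entered the test of all genes, and SLC7A8 did not. By limma on log2(FPKM + 1) with Benjamini-Hochberg adjustment, none of the 5 was called at an adjusted p under 0.05 in any of the 8 comparisons. Of all genes, 1.87% were called at 1 µM, 0.205% at 10 nM and 0% at 100 pM, among 9755 tested, and 0% in each of the 5 comparisons of the glyphosate table, among 9533. At an unadjusted p under 0.05 there was 1 member, SLC43A1 at 1 µM, where 1322 of all 9755 genes, or 13.6%, were under that limit. Of all genes, 473 (4.85%) were under it at 10 nM, 116 at 100 pM and 84 to 165 in the comparisons of the glyphosate table. Over all genes tested, log2 fold changes had a median of -0.26 at 1 µM and -0.21 at 10 nM, so the values below lie on a shifted background.

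**Figure D3:**
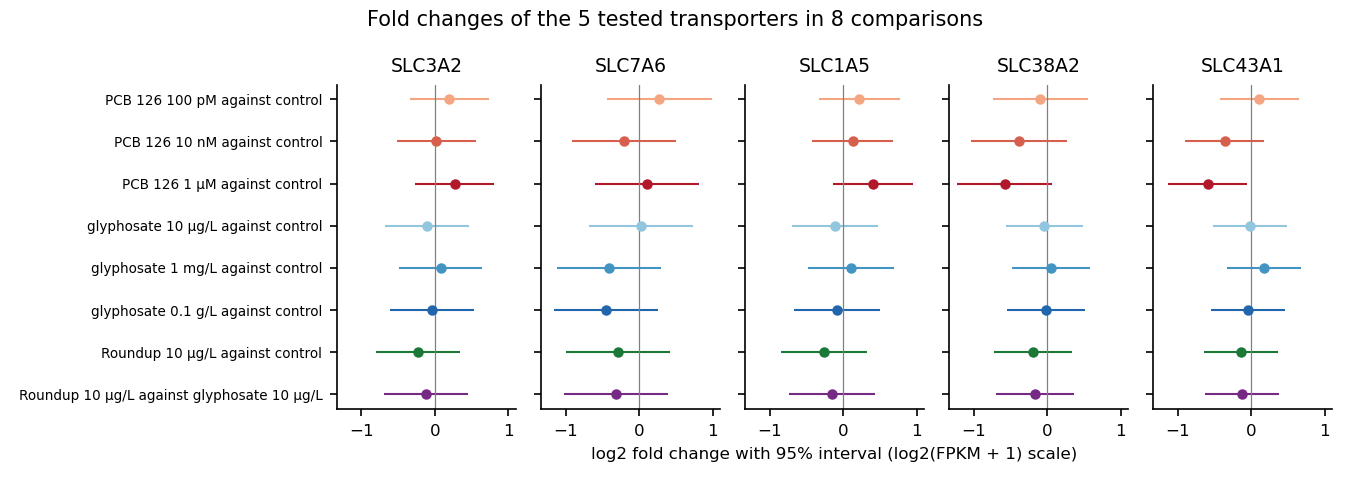
Log2 fold change with its 95% interval from limma, on the log2(FPKM + 1) scale, for the 5 tested genes in 8 comparisons. SLC43A1 at 1 µM, from -1.13 to -0.05, has the only interval that leaves out 0.

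SLC3A2, the heavy chain, held 48.1, 47.6, 43.4, 39.2 and 22.1 FPKM in the controls. At 1 µM it held 45.9, 51.0, 48.4, 56.6 and 35.4 FPKM. Control replicate 5 was the lowest library and the groups overlapped. The log2 fold change was 0.27 (SE 0.26, limma adjusted p = 0.63) at 1 µM, 0.02 at 10 nM and 0.19 at 100 pM. The ratio of the SLC7A5 locus to SLC3A2 was 0.0203 ± 0.00700 in the controls, 0.174 ± 0.0941 at 10 nM and 0.313 ± 0.109 at 1 µM (SD, n = 5). By FPKM, SLC3A2 RNA thus remained more abundant than RNA of the SLC7A5 locus, and levels of the chains as proteins were not measured.

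SLC7A8, which encodes the related light chain LAT2, held 0.205, 0.268, 0.421, 0.435 and 0.0722 FPKM in the controls. Its means were 0.115 ± 0.0921 FPKM at 10 nM and 0.120 ± 0.0921 at 1 µM, and both groups overlapped the controls. SLC7A6 encodes y+LAT2, a light chain that exchanges basic for neutral amino acids. It held 5.04, 4.12, 4.99, 3.64 and 1.84 FPKM in the controls and 3.41, 4.52, 5.04, 4.79 and 3.19 FPKM at 1 µM. Its log2 fold change at 1 µM was 0.11 (SE 0.34, limma adjusted p = 0.89). At 10 nM SLC7A6 ranged from 0.677 FPKM in replicate 3 to 8.14 FPKM in replicate 2, the widest spread of its 8 groups.

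SLC1A5, the sodium-coupled glutamine exchanger ASCT2, held 26.7, 29.1, 27.6, 22 and 12.1 FPKM in the controls. At 1 µM it held 21.8, 36.1, 33.7, 37.8 and 24.5 FPKM. Replicates 1 and 5 at 1 µM, both with high multiple alignment, were the 2 that fell within the control range. Its log2 fold change was 0.40 (SE 0.27, limma adjusted p = 0.50) at 1 µM, 0.13 at 10 nM and 0.22 at 100 pM.

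SLC38A2, the sodium-coupled carrier SNAT2, held 119, 123, 101, 95.6 and 57.1 FPKM in the controls. At 1 µM it held 26.1, 102, 76.8, 88.0 and 59 FPKM. Replicate 1 at 1 µM was the lowest of all 40 libraries and the groups overlapped. On the log2 scale SLC38A2 changed by -0.58 (SE 0.31, limma adjusted p = 0.43) at 1 µM and -0.38 at 10 nM.

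SLC43A1, the facilitative carrier LAT3, held 13.1, 13.0, 12.7, 13.5 and 8.45 FPKM in the controls. At 1 µM it held 6.01, 8.55, 8.10, 9.24 and 6.63 FPKM, and only control replicate 5 fell within that range. The log2 fold change was -0.59 (SE 0.26, limma adjusted p = 0.31), and the 1 µM library was the lower in all 5 runs of library numbers. At 10 nM the libraries spread from 5.06 to 16 FPKM, with a log2 fold change of -0.36 (adjusted p = 0.86).

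**Figure D4:**
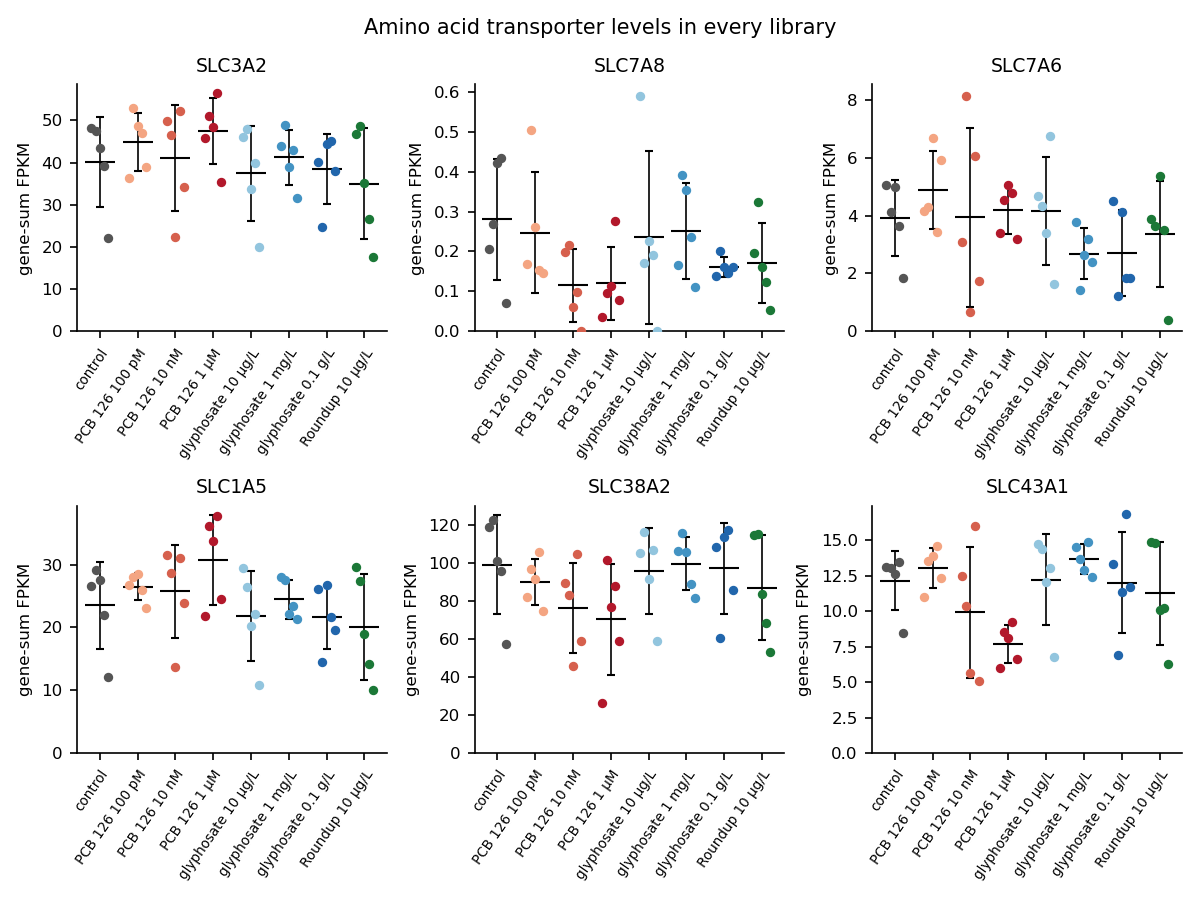
Gene-sum FPKM of SLC3A2, SLC7A8, SLC7A6, SLC1A5, SLC38A2 and SLC43A1 in each library, by group; points are libraries, and horizontal and vertical bars are the mean and SD of 5. SLC43A1 lies between 6.01 and 9.24 FPKM at 1 µM, below 4 of the 5 controls, and the other 5 genes overlap the controls more widely.

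Scaling between libraries changed these calls at 1 µM. The FPKM were not scaled between libraries as deposited, and the factors that brought each library of the PCB 126 table to the same 75th percentile ran from 0.781 to 1.85. After this scaling limma called 3 of the 5 genes, against 11.2% of all genes, and log2 fold changes over all genes had a median of -0.09. SLC1A5 was higher by 0.61 (SE 0.087, adjusted p = 0.00016), SLC3A2 was higher by 0.48 (SE 0.10, adjusted p = 0.0051), and SLC43A1 was at -0.40 (SE 0.13, adjusted p = 0.045).

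The scaled levels of SLC1A5 were 22, 22.7, 24.5, 21.7 and 18.6 in the controls and 34.5, 34.0, 31.5, 34.4 and 34.4 at 1 µM, with no overlap. Those of SLC3A2 were 34.0 to 39.6 in the controls and 45.2 to 72.5 at 1 µM, with replicate 1 far above the others. Those of SLC43A1 were 10.2 to 13.3 in the controls and 7.57 to 9.50 at 1 µM, again with no overlap. The share of all genes without overlap after this scaling was not counted, so how common such a separation is remains unknown. SLC38A2 (adjusted p = 0.12) and SLC7A6 (adjusted p = 0.53) were not called after scaling.

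Other settings called 2 of the 5 genes at 1 µM. Quantile normalization called SLC1A5 and SLC3A2, with 11.1% of all genes called. A linear model with a library-size term called the same pair, with 8.51% of all genes called. Without the 9 libraries of high multiple alignment SLC1A5 (0.44, adjusted p = 0.049) and SLC43A1 (-0.55, adjusted p = 0.034) were called, with 6.34% of all genes. With each of the 10 libraries of this comparison left out in turn and no scaling, 0 of the 5 were called.

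**Figure D5:**
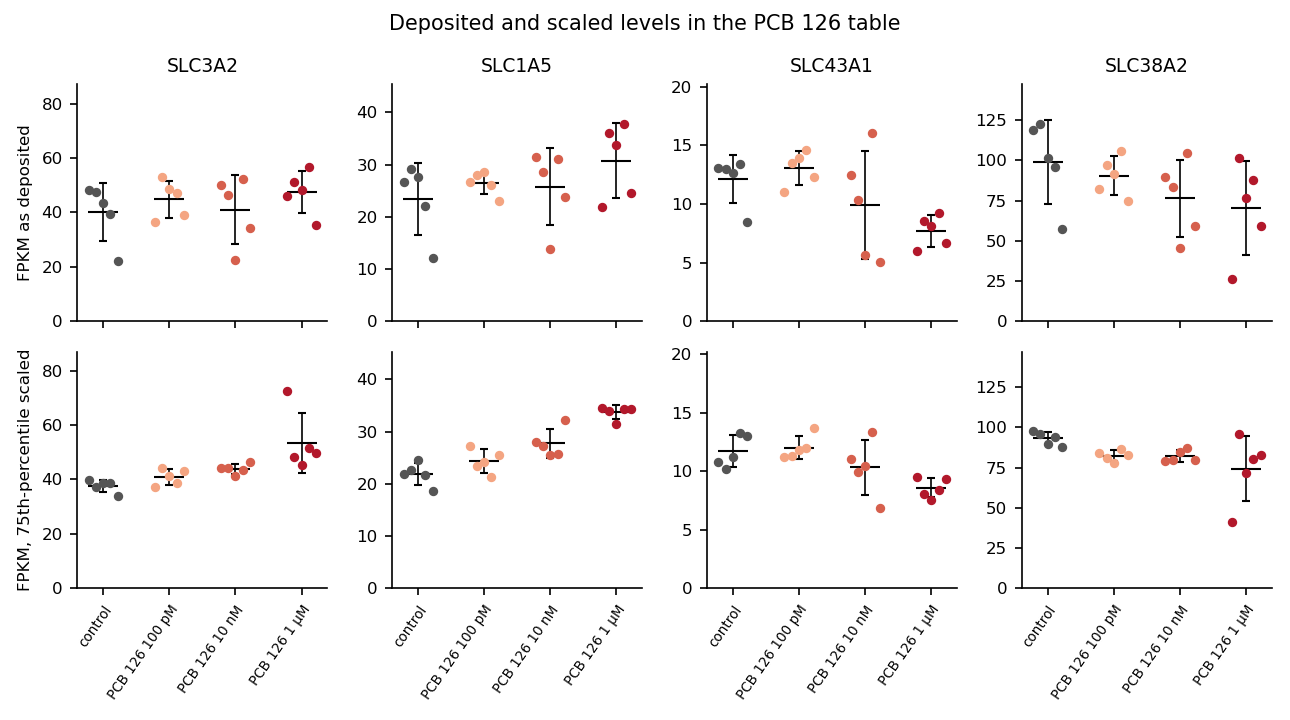
FPKM as deposited (top) and after 75th-percentile scaling (bottom) of SLC3A2, SLC1A5, SLC43A1 and SLC38A2 in the PCB 126 table; points are libraries, bars are the mean and SD of 5. After scaling, SLC1A5 lies between 18.6 and 24.5 in the controls and between 31.5 and 34.5 at 1 µM.

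At matched dose, Roundup and glyphosate at 10 µg/L did not differ detectably in any of the 5 tested genes. The log2 fold change of Roundup against glyphosate was -0.13 for SLC3A2 (95% interval -0.70 to 0.45), -0.15 for SLC1A5 (-0.74 to 0.44) and -0.16 for SLC38A2 (-0.69 to 0.37). It was -0.12 for SLC43A1 (-0.63 to 0.38) and -0.32 for SLC7A6 (-1.03 to 0.39), and all 5 had a limma adjusted p of 0.97. The intervals leave room for larger differences than these in both directions, down to -1.03 for SLC7A6 and up to 0.45 for SLC3A2. Against control, the 3 glyphosate concentrations and Roundup gave values from -0.45 for SLC7A6 at 0.1 g/L to 0.18 for SLC43A1 at 1 mg/L, with adjusted p of at least 0.90.

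SLC7A6 had its lowest mean levels among the groups at 1 mg/L (2.67 FPKM ± 0.881) and 0.1 g/L glyphosate (2.71 ± 1.49), where it was below its control in 4 and 5 of the 5 runs of library numbers. Both groups overlapped the controls. SLC43A1 was above its control in 5 of 5 runs at 1 mg/L, with 14.6, 13.7, 12.9, 14.9 and 12.4 FPKM. The adjusted p was 0.96 for both genes at 1 mg/L, and SLC7A6 at 0.1 g/L had an adjusted p of 1.

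Of 45 other amino acid transporter genes, 16 passed the variance limit. By limma, 1 of the 16 was called in 1 of the 8 comparisons, SLC38A4 at 1 µM, where 4 of 16 had an unadjusted p under 0.05, beside 13.6% of all genes. The median log2 fold change of the 16 was -0.20 at 1 µM, beside -0.26 for all genes.

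SLC38A4 encodes a sodium-coupled carrier that is prominent in liver. It held 2.34, 5.47, 0.163, 6.69 and 5.13 FPKM in the controls and 0.00569, 0.0166, 0.0783, 0.0537 and 0.168 FPKM at 1 µM. Control replicate 3 and replicate 5 at 1 µM were about equal and the other libraries did not overlap. The log2 fold change was -1.95 (SE 0.51, limma adjusted p = 0.042), and the call was lost in 9 of the 10 fits that left out 1 library, with adjusted p up to 0.13. Over all alternatives the adjusted p ranged from 0.0077 to 0.22. At 100 pM SLC38A4 held 2.11 to 6.97 FPKM and at 10 nM 0.0339 to 9.03 FPKM. Single herbicide libraries were also low, with 0.0171 FPKM in Roundup replicate 5 and 0.339 in replicate 5 of 10 µg/L glyphosate. The other herbicide libraries held 2.64 to 10.9 FPKM.

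With 75th-percentile scaling 5 of the 16 were called at 1 µM, beside 11.2% of all genes. Those besides SLC38A4 are named here after their values were seen. SLC7A2, a carrier of basic amino acids, was higher by 0.88 (SE 0.15), SLC6A6, the taurine carrier, by 0.70 (SE 0.097), and SLC7A11, the cystine and glutamate exchanger, by 0.66 (SE 0.19). SLC1A4, the neutral amino acid carrier ASCT1, was at -0.46 (SE 0.098). Without scaling their adjusted p by limma were 0.27, 0.42, 0.52 and 0.28. SLC7A11, which also pairs with SLC3A2, held 13.8, 16.7, 10.5, 12.5 and 6.45 FPKM in the controls and 6.61, 26.3, 20.1, 21.8 and 14.3 FPKM at 1 µM. At 10 nM, 0 of 16 were called as deposited, where 2 had an unadjusted p under 0.05. With 75th-percentile scaling SLC7A2, SLC6A6 and SLC7A11 were called higher at 10 nM, with 1.44% of all genes called. Quantile normalization (1.89% of all genes) and the library-size term (1.17%) called these 3 and SLC1A4 lower. Without the 9 libraries of high multiple alignment SLC7A11 was called higher, 1 of 12 tested, with 0.675% of all genes called.

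SLC7A5 and several other carriers are known targets of ATF4, the transcription factor of the amino acid response, so 17 genes of that response were read beside them. Of these, 14 were tested. At 1 µM limma called 1, CTH, which encodes the cysteine-forming enzyme cystathionine gamma-lyase. CTH held 4.39, 3.68, 2.99, 3.09 and 2.34 FPKM in the controls and 4.95, 15.4, 14.1, 14.5 and 9.11 FPKM at 1 µM, all above the controls. CTH rose by 1.48 on the log2 scale (SE 0.30, adjusted p = 0.0066), and the call was kept in all 22 alternatives. The median of the 14 genes was -0.09 at 1 µM, beside -0.26 for all genes, and 3 of 14 had an unadjusted p under 0.05, beside 13.6% of all genes. With 75th-percentile scaling 4 of the 14 were called at 1 µM, beside 11.2% of all genes, with CTH, ATF3 and DDIT4 higher and PHGDH lower. As deposited, no gene of the list was called at 100 pM, at 10 nM or in the glyphosate table, and at an unadjusted p under 0.05 there were 2 at 10 nM and 1 at 10 µg/L glyphosate. CTH was called higher at 10 nM with 75th-percentile scaling, with quantile normalization, with the library-size term and without the 9 libraries of high multiple alignment.

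A further list of 18 genes held subunits and regulators of mTORC1, the amino acid-sensing kinase complex, among them the arginine sensor CASTOR1, and 4 enzymes of branched-chain amino acid breakdown (BCAT1, BCAT2, BCKDHA and BCKDHB). Of these, 16 were tested and 0 were called by limma in any comparison as deposited. At an unadjusted p under 0.05 there were 2 at 1 µM, beside 13.6% of all genes. Their median log2 fold change at 1 µM was -0.29, close to the -0.26 of all genes. With 75th-percentile scaling RRAGD, a Rag GTPase subunit, and SESN1, a sestrin, were called at 1 µM at -0.45 (SE 0.093) and -0.45 (SE 0.11). They were 2 of the 16 tested, close to the 11.2% of all genes called with this scaling.

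Over the 20 libraries of the PCB 126 table, the genes whose log2(FPKM + 1) followed the SLC7A5 locus most closely were SERPINB2, PLEKHF1, SLC37A2, MB21D2 and STC2, with Pearson r from 0.959 to 0.965. All of these libraries share the same treatment series, so the coefficients describe likeness across the groups. SERPINB2, a plasminogen activator inhibitor, went in mean from 0.742 FPKM in the controls to 2.43, 15.8 and 39.4 FPKM at the 3 concentrations. STC2, the secreted glycoprotein stanniocalcin 2, went from 0.824 to 17.4 FPKM at 1 µM, and SLC37A2, a sugar phosphate carrier of the endoplasmic reticulum, from 2.58 to 43 FPKM.

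TIPARP, a target of the aryl hydrocarbon receptor, ranked 9 of 9755 genes with r = 0.952, and CYP1A1 had r = 0.831. The lowest coefficients were those of COL3A1, a fibrillar collagen, at -0.900 and of CYP4F22 at -0.871. Among the transporters r was 0.481 for SLC1A5, 0.345 for SLC3A2, 0.125 for SLC7A6, -0.330 for SLC38A2 and -0.497 for SLC43A1. Over the 20 treated libraries of the glyphosate table, where the locus stayed low, r was between 0.356 and 0.728 for the 5 closest genes and between 0.370 and 0.642 for the 5 transporters.

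Of the cell type markers, 3 were called at 1 µM by limma as deposited. The summed FPKM of 10 hepatocyte markers ranged from 13480 to 19765 in the controls and from 5500 to 13629 at 1 µM, and 2 of the 10, TTR and CPS1, were called lower (5 of 10 had an unadjusted p under 0.05, beside 13.6% of all genes). The sum of 8 biliary and progenitor markers ranged from 279 to 535 and from 165 to 285 FPKM, and that of 5 proliferation markers from 28.5 to 70.9 and from 16.3 to 39.3 FPKM, with 0 called in both lists (3 of 4 tested and 4 of 5 had an unadjusted p under 0.05). The sum of 6 mesenchymal markers ranged from 40.8 to 88.9 and from 50.5 to 190 FPKM, and COL3A1 was called lower at -3.07 (4 of 5 tested had an unadjusted p under 0.05). The other tested members of that list were at 1.03 for LUM, 1.02 for DCN, 0.64 for COL1A1 and -0.75 for PDGFRB, with limma adjusted p of 0.18, 0.089, 0.38 and 0.14. With 75th-percentile scaling LUM, DCN and COL1A1 were called higher and PDGFRB lower. Of the hepatocyte markers, this scaling called ALB, TTR, TF, SERPINA1 and CPS1 lower and HNF4A higher, at 0.61. It also called SPP1 of the biliary and progenitor list and TOP2A, MKI67 and BIRC5 of the proliferation list lower. Of all genes, 11.2% were called with this scaling. No marker of the 4 lists was at 0 in all controls, although EPCAM averaged 0.0080 FPKM and COL1A2 0.0010 FPKM there. The part of these markers in the levels of the transporters was not tested.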

How the data were processed

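Directional libraries were made from total RNA after depletion of ribosomal RNA and sequenced as read pairs. The authors aligned them to GRCh38 with HISAT2 and ran StringTie to assemble transcripts and estimate their abundance, and they deposited FPKM per transcript and library, with no scaling between libraries and no pooling. Columns of the deposited tables that hold values just below 0 were classed as a score (4 values for PCB 126, 6 for glyphosate), and these were replaced by 0. Every library differed from every other. Without counts, no counting error could be given.

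FPKM were summed per gene name, and for SLC7A5 also over the 4 transcripts without a gene name that overlap it on the minus strand. Genes with a variance of FPKM above 1 were tested on log2(FPKM + 1) with limma 3.58.1 (lmFit and eBayes, R 4.3.3) in 1 fit per table without covariates, with Benjamini-Hochberg adjustment at 0.05 over all genes tested. A fold change on this scale understates that of low genes. The fit was tested on simulated data. The whole locus in the herbicide groups was compared by exact permutation tests, which were added after seeing the data. The members, the gene lists and the tests were chosen with earlier results of these data known.

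Groups came from the treatment in the labels. A replicate number is the run of consecutive library numbers, 5 in all, from which each group holds 1 library. The genes named were the 7 members, transcripts at SLC7A5 with a mean of at least 1 FPKM in a group, genes called in the fixed lists (at most 10 transporters or 6 others by smallest p), and the 5 genes most and 2 least correlated with SLC7A5. The rule did not say which sum of SLC7A5 to use, and the whole-locus sum was taken after its values were seen. Alternatives tried were another pseudocount (0.1), other filters and scalings, a library-size term, a replicate block, fits of 2 groups, the most abundant transcript, and subsets of libraries. The limit of 30% for multiple alignment was applied from the study's alignment summary, in which some entries carried no library name. Sequences came from RefSeq promoters (GRCh38.p14) and the GRCh38 genome, and other steps used Python 3.11.15, numpy 2.4.6, pandas 2.3.3, scipy 1.17.1 and matplotlib 3.10.9.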

Additional observations from a re-analysis of the deposited data

Results flagged for a closer look

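In groups of 5 libraries, the lowest or highest library was far from the others in 2 of the 64 sets of values tested with Dixon's ratio at 0.71, fewer than the 1 in 20 that chance gives. The sum of the transcripts named SLC7A5 was 0.420 FPKM in PCB 126 1 µM replicate 3, against 1.1 to 1.27 FPKM in the other 4 libraries, while the same library had the highest whole-locus level of its group with 22.5 FPKM. SLC43A1 was 8.45 FPKM in control replicate 5, against 12.7 to 13.5 FPKM in the other 4 controls.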

How the results depend on the processing

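The count of the other members called at 1 µM was 0 as reported, 3 with 75th-percentile scaling, and 2 with quantile normalization, with the library-size term and without the 9 libraries of high multiple alignment. The calls of all genes numbered 182, 1094, 1085, 830 and 526 in these 5 fits, of which 63, 434, 532, 454 and 206 were higher. The replicate block gave 357, leaving out control replicate 5 gave 365, control replicate 4 gave 118, and control replicate 5 together with 10 nM replicate 3 gave 493. The cause was not tested. With 75th-percentile scaling, quantile normalization, the library-size term and without the 9 libraries, in this order, the other transporters called at 1 µM numbered 5, 5, 5 and 3 (1 as reported) and the ATF4 targets 4, 4, 3 and 3 (1). The genes of the mTORC1 and branched-chain list numbered 2 in each of the first 3 of these (0 as reported), and the ATF4 targets 2 without control replicate 5. In the other 7 comparisons no alternative called a member, and with 1 library left out the lowest and highest counts were 0 and 0 in all 8. Over 850 alternative fits of 5 genes in 8 comparisons, the sign was that reported in 754, and no value past the threshold in a fit had the opposite sign.

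The whole-locus log2 difference of SLC7A5 was 1.09, 2.80 and 4.02 at 100 pM, 10 nM and 1 µM with a pseudocount of 0.1, and -0.29, -0.012 and 0.19 with the transcripts named SLC7A5 alone, which leave out the assembled transcripts. With 1 library left out it ranged from 0.46 to 0.71, from 1.76 to 2.32 and from 2.88 to 3.21. With the replicate block (run of library numbers) the number of members called was 0 in all 8 comparisons. The runs are not stated to pair libraries: deviations from the group means correlated between -0.06 and 0.17 within a run, and 9 of 20 libraries correlated best with their own run.

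The number of libraries, 5 a group, limits precision, and levels near 0 FPKM, as for SLC7A8 and the SLC7A5 transcripts in the controls, rest on few fragments of unknown number.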
